A study of Xenopus tropicalis with 12 samples.

Results

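At the climax of metamorphosis, 4777 of the 13954 genes tested (34.2%) were called different between the intestines of tadpoles without thyroid hormone receptors and wild-type intestines. A call needed an adjusted p under 0.05 and a fitted change of more than 2-fold, and the number depends on how the libraries are scaled. The comparison described here sets the 3 libraries of TRDKO tadpoles at stage 61 against the 3 libraries of wild-type tadpoles at the same stage, 6 of the 12 libraries of the series. They were chosen by the genotype and stage in their labels, and all genes in the deposited counts were considered. TRDKO tadpoles carried knockout mutations in both copies of both receptor genes, TRα-/- TRβ-/-, and wild-type tadpoles were TRα+/+ TRβ+/+. The mutations in TRβ were out-of-frame deletions. The other 6 libraries, from TRDKO and wild-type tadpoles at stage 54, entered the fit and are used below only to place the stage 61 difference. RNA came from the whole intestine of Xenopus tropicalis tadpoles that received no hormone, and ages and sexes were not given in the sources used here. The study kept a pair of TRDKO lines with different deletions in TRβ and does not say from which one the sequenced tadpoles came. Its TRDKO tadpoles came from parents that lacked TRα, which cannot have wild-type offspring, so genotype and parentage cannot be told apart. TRDKO tadpoles do not develop past this stage, and the time each animal had spent in it was not given either.

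Thyroid hormone receptors sit on their target genes as partners of retinoid X receptors, with or without hormone. Without hormone they recruit corepressors and hold target genes down, and once the hormone T3 binds they recruit coactivators and drive the same genes. In the tadpole intestine the hormone peak at climax brings death of the larval epithelium, formation of adult stem cells, growth of connective tissue and muscle, and shortening of the gut. Stage 61 is therefore the point at which wild-type tadpoles hold receptor with hormone and TRDKO tadpoles hold no receptor, whereas at stage 54 the receptor is mostly without hormone.

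The counts list genes by Ensembl ID. Of the 19921 IDs, 0 were found in the gene table at hand, so the IDs could not be paired with gene names. The receptor genes themselves, the markers of intestine and of other tissues, and the lists of hormone response, cell cycle, stem cell and matrix genes were for this reason not examined, and the labelled tissue and the knockout were not checked in the counts. Genes are described here by how they behaved, and 4 of them are given by ID. In RNA from a whole organ, fewer cells of a type and less RNA per cell cannot be told apart.

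The libraries held 25584779 to 36517167 counts in TRDKO and 20112705 to 33588231 in wild-type tadpoles. Of the listed genes, 16738 had a count at stage 61 and 3183 had none. Of the genes with a count, 2786 were too rare to be tested, and the 5967 untested genes together took at most 0.0256% of the counts of a library. In the 13954 genes tested, levels were expressed as CPM, the counts of a gene relative to a library total that TMM, a method for libraries of unlike composition, brings to a common level. The libraries of a genotype were close to each other, with correlations of log2 CPM across genes, which are not independent replicates, of 0.995 to 0.996 within TRDKO and 0.996 to 0.997 within wild type. A TRDKO and a wild-type library correlated at 0.858 to 0.860. Counts of 2 libraries of the same genotype differed by only 1.19 to 1.31 times the sampling noise in TRDKO and 1.42 to 1.88 times in wild type (median chi-square over genes). The study describes pooling tissue of several animals of a genotype for RNA extraction and calls the sequenced samples biological replicates, without giving the number of animals in each sequenced sample, and the p-values below measure the spread between these samples. Among the libraries of stage 54, TRDKO replicate 3 stood apart from its group, with correlations of 0.950 and 0.951 to the other two. The calls that use that stage are given with and without it.

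The counts were concentrated in fewer genes without receptors. In TRDKO tadpoles the 100 most abundant genes of each library took 50.4%, 50.1% and 49.9% of its counts, against 34.3%, 34.0% and 34.5% in wild-type tadpoles. Mean shares were 50.1% ± 0.220 and 34.3% ± 0.233 (SD, n = 3 each), without overlap (two-sided exact permutation test, p = 0.1, the lowest value this number of libraries can give). At stage 54 the order had been the other way round, with 40.9%, 40.9% and 43.4% in TRDKO libraries, against 47.8%, 47.8% and 48.0% in wild-type libraries. Only 99, 100 and 101 genes made up the first 50% of the counts of the TRDKO libraries, whereas 314, 321 and 311 genes were needed in the wild-type libraries. The first 90% took 3184 ± 23.3 genes in TRDKO and 4843 ± 21.4 genes in wild-type tadpoles (SD, n = 3 each). The same gene was the most abundant in both genotypes, and 7 of the 10 most abundant genes were shared. That gene took 3.41% ± 0.0223 of the counts in TRDKO and 3.54% ± 0.156 in wild-type tadpoles, and the 10 most abundant genes took 16.1% ± 0.0950 in TRDKO and 12.7% ± 0.165 in wild-type tadpoles (SD, n = 3 each), both without overlap (two-sided exact permutation test, p = 0.1 each). At least 10 counts were found for 13509, 13152 and 13283 genes in TRDKO and 13749, 13849 and 13438 genes in wild-type tadpoles, and these numbers overlapped (two-sided exact permutation test, p = 0.2). At a limit that does not move with depth, at least 1 CPM, 12074 ± 23.8 genes in TRDKO and 12329 ± 16.9 genes in wild-type tadpoles were detected (SD, n = 3 each; two-sided exact permutation test, p = 0.1). This limit does move with the scaling. The TMM factors were 0.979 to 0.998 in TRDKO and 1.53 to 1.54 in wild-type libraries, so it asked for a larger share of the counts in wild type.

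**Figure D1:**
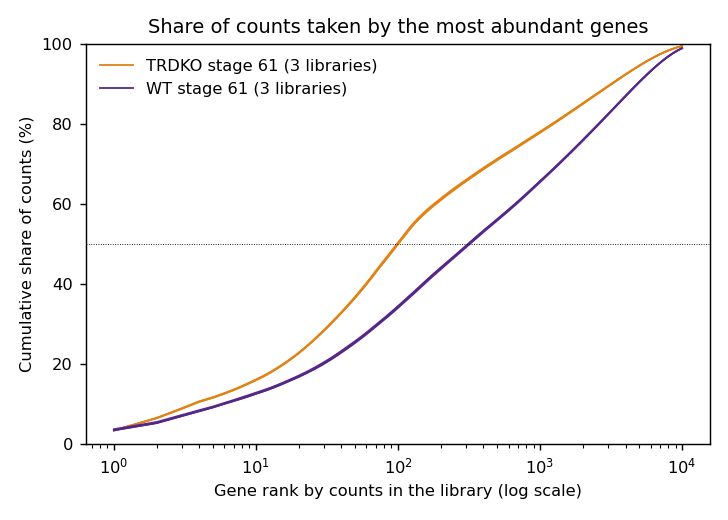
Cumulative share of counts (%, vertical axis) against the rank of the gene in its library (horizontal axis, log scale), one line for each of the 3 TRDKO and 3 wild-type libraries of stage 61, with a dotted line at 50%. The TRDKO lines reach 50% at ranks 99 to 101 and the wild-type lines at ranks 311 to 321, and lines of a genotype lie on top of each other.

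Genes were tested with edgeR in a quasi-likelihood fit of all 12 libraries, where the study used DESeq2. At the thresholds of the study, a gene was called where the p adjusted by Benjamini and Hochberg was under 0.05 and the fold change over 2. By this rule 2803 genes (20.1%) were lower in TRDKO tadpoles relative to the wild type, and 1974 (14.1%) were higher. Of all calls, 58.7% were lower, against 53.5% in edgeR on the 6 libraries of stage 61 alone. Over all genes tested, the log2 fold change had a median of -0.11, against -0.014 in that fit of 6 libraries. When all 12 libraries were scaled by library size alone the median was -0.75. With that scaling 5438 lower and 946 higher genes were called, 85.2% of calls lower. This scaling shifts the fold changes of all genes alike, by 0.64 on the log2 scale, so it moves the balance of lower and higher genes and could not turn the direction of a gene called beyond 2-fold.

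The called genes differed evenly in the replicates. Of the lower genes, 93.5% to 94.8% lay more than 2-fold below the wild-type mean in each TRDKO library, and every lower gene lay below that mean in each of the 3 libraries. For the higher genes this share was 95.4% to 96.5%, and again every gene lay on the same side in each library. The call was made from these same libraries, so this agreement is in large part fixed by it. The TRDKO and wild-type libraries did not overlap in 2797 of the lower and 1972 of the higher genes. They did not overlap either in 7102 of the 9177 genes that were not called, and 70.2% of the genes tested were called where the fold threshold was left out. With such close libraries the 2-fold threshold decided many calls: at an adjusted p under 0.05 alone, 5498 genes (39.4%) were lower and 4291 (30.8%) higher (edgeR). The lower genes nearest to the threshold had log2 fold changes of -1.001 inside and -0.9998 outside it, and the higher genes of 1.001 and 0.9998.

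Most of the genes that were not called had an interval of the fold change within 2-fold. In 6615 of these 9177 genes (72.1%), the 95% interval of the fold change lay within 2-fold in both directions, in the fit of the same model. In the other 2562 the interval reached past 2-fold, so the data did not settle whether they differed by that much. A difference of under 2-fold passed the adjusted p in 2695 lower and 2317 higher genes of this group, and 140 genes had a fitted difference of more than 2-fold that missed the adjusted p.

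**Figure D2:**
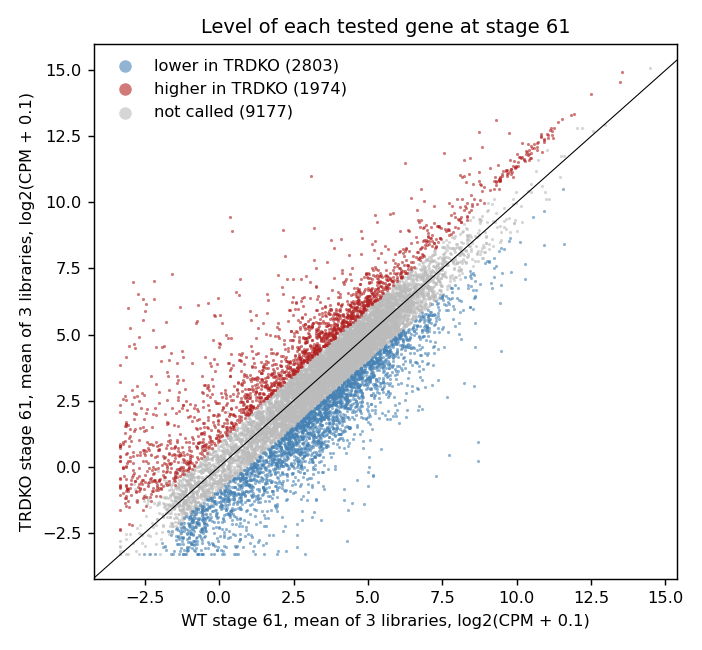
Mean level of each of the 13954 tested genes in the 3 TRDKO libraries (vertical axis) against the 3 wild-type libraries of stage 61 (horizontal axis), both as log2(CPM + 0.1) and scaled by TMM, with the line of equal levels. The 2803 genes lower in TRDKO lie below the line mostly at low levels, and the most abundant genes form a narrow streak above it, parallel to the line.

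Lower genes were most frequent among rare genes and higher genes among abundant ones. The tested genes were divided into 10 bins of equal size by their mean level in the 6 libraries. In the rarest bin (up to 0.872 CPM), 30.2% of the genes were lower and 17.4% higher in TRDKO. Lower genes were less frequent at higher levels, with 20.6% in the fifth bin and 12.5% in the most abundant one (from 72.1 CPM). Higher genes made up 9.68% of the sixth bin and 28.2% of the most abundant one. The standard error of the log2 fold change was largest in rare genes, with a median of 0.446 in the rarest and 0.0875 in the most abundant bin. With library size alone, 26.4% of the most abundant bin were lower and 11.8% higher, so higher genes did not outnumber lower ones there. The share of higher genes was still largest in that bin, against 2.80% in the sixth and 11.5% in the rarest.

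The most abundant genes differed by a similar amount from each other. The 100 genes with the largest mean share of the counts over the 6 libraries took 49.3%, 49.0% and 48.9% of the counts in TRDKO, against 33.2%, 32.9% and 33.3% in wild-type tadpoles. All of them had a mean of at least 1349 CPM. Of these genes, 79 were higher in TRDKO, 3 were lower and 18 were not called, beside 14.1% higher genes among all those tested. The ranking moves these numbers. With TMM, the top 100 genes of TRDKO libraries alone held 90 higher and 0 lower genes. Those of wild-type libraries alone held 64 higher and 8 lower genes. In the 100 genes ranked over the 6 libraries, the median log2 fold change was 1.43, with quartiles of 1.197 and 1.609. Of these genes, 59 lay between 1.25 and 1.75. The median log2 difference to the wild-type mean was 1.46, 1.45 and 1.40 in TRDKO replicates 1, 2 and 3. The width between the quartiles was 0.412 in these 100 genes, against 2.03 in the next 200 by abundance, 1.38 in the 700 after them and 1.17 in the following 2000. Such uniform movement was thus seen in the 100 most abundant genes and not in the bands below them. The next 200 genes held 85 higher and 25 lower genes with TMM. They took about the same share of counts in both genotypes, 15.7% ± 0.0234 in TRDKO and 15.3% ± 0.0236 in wild-type tadpoles (SD, n = 3 each). Their median log2 fold change with TMM was 0.62, about the 0.64 by which the scalings differ. Calls with library size alone were not counted for these 200 genes.

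How many of these 100 genes pass as higher depended on the scaling. With library size alone their median log2 fold change was 0.80, and 21 were called higher and 7 lower. Relative to the median of all tested genes, which takes out any shift common to all genes, their median was 1.55 higher. Their share of the counts, which needs no scaling between libraries, had been the other way round at stage 54, with 36.9% ± 0.799 in TRDKO and 40.7% ± 0.186 in wild-type tadpoles (SD, n = 3 each). The stage 54 shares were 36.4%, 36.4% and 37.8% in the 3 TRDKO libraries, against 40.5%, 40.6% and 40.9% in the wild-type libraries. In 91 of the 100 genes the genotype effect was higher at stage 61 than at stage 54, and in 4 it was lower (contrast of both genotype effects in the edgeR fit, adjusted p under 0.05, beside 30% and 37.5% of all genes tested). Without TRDKO replicate 3 of stage 54 these were 95 and 4 genes, and with library size alone 79 and 17. Over all genes tested, a higher effect at stage 61 was called in 4191 genes and a lower one in 5236, and with library size alone in 1160 and 10331.

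Genes called in the same direction differed widely in the size of the difference. The median log2 fold change was -1.69 in the lower genes (quartiles -2.38 and -1.29) and 1.62 in the higher genes (quartiles 1.27 and 2.43). A change of more than 4-fold was seen in 1030 lower and 704 higher genes, or 36.8% and 35.7% of each class. More than 8-fold differences were seen in 333 lower and 359 higher genes, more than 16-fold in 149 and 212, and more than 32-fold in 77 and 137. The lower genes thus outnumbered the higher genes among moderate differences and not among the largest. With library size alone, 247 lower and 167 higher genes differed more than 16-fold, so this order was not kept under that scaling, while 115 and 112 genes differed more than 32-fold. In the fit of the 6 libraries of stage 61 alone these numbers were 138 and 216 for 16-fold and 72 and 138 for 32-fold.

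**Figure D3:**
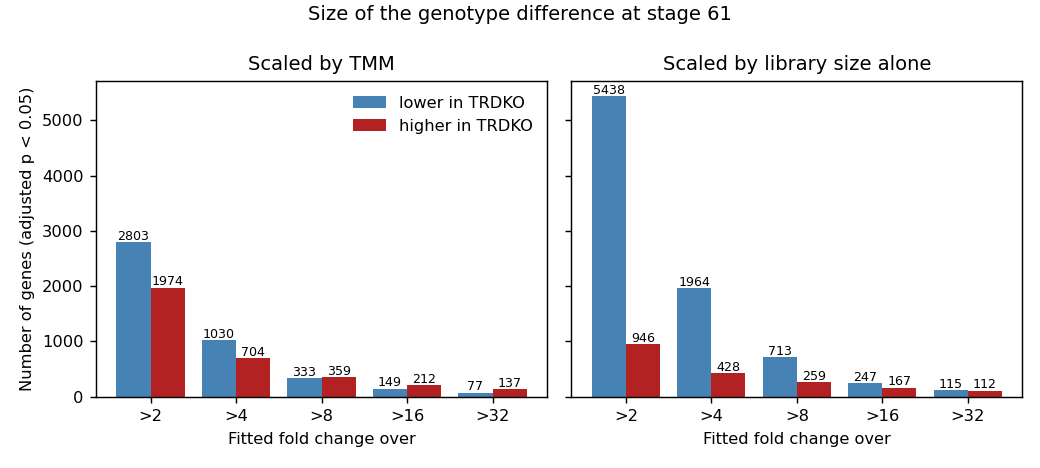
Number of genes with an adjusted p under 0.05 (vertical axis) that were lower (blue) or higher (red) in TRDKO by more than 2, 4, 8, 16 and 32-fold (horizontal axis), with libraries scaled by TMM (left) and by library size alone (right). With TMM the lower genes lead at 2-fold with 2803 against 1974 and the higher genes at 32-fold with 137 against 77, and with library size alone lower genes lead at 2-fold with 5438 against 946.

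Some of the called genes were at or near 0 counts in 1 genotype. In 141 of the lower genes each TRDKO library had 3 counts or fewer, the limit that a count of 0 allows, and 28 of them had no count in the 3 libraries. In 109 of the higher genes each wild-type library was at or under this limit, and 23 had no count there. A gene of this kind was tested only because another group expressed it, so the numbers are a description. Most were rare: their median level in the genotype that expressed them was 0.507 CPM in the lower and 1.08 CPM in the higher genes. The highest limit of the 3 libraries (0.118 CPM in TRDKO and 0.0972 CPM in wild type) was then put in place of the missing level. With it, 32 of the 141 genes were more than 10-fold lower and 60 of the 109 more than 10-fold higher. A library with a few counts allows more than this limit, so these folds are bounds only for genes with no count. With these genes set to their limits the median log2 fold change was -1.67 in the lower and 1.62 in the higher genes. The other 2662 lower and 1865 higher genes had more counts than that in at least 1 library of each genotype.

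The 4 genes given by ID had the largest falls among 1037 lower genes and the largest rises among 1136 higher genes. These were the called genes whose mean over the 6 libraries reached 10 CPM and whose genotypes did not overlap. What they encode was not examined.

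ENSXETG00000013699 had 22, 21 and 50 counts in the TRDKO libraries, against 18386, 21828 and 12698 counts in the wild-type libraries. Its level was 1.07 ± 0.612 CPM in TRDKO and 414 ± 5.77 CPM in wild-type tadpoles (SD, n = 3 each), and the log2 fold change was -8.62 ± 0.66 (standard error; adjusted p = 5.07e-07 by edgeR). Every TRDKO library was far below every wild-type library. At stage 54 it had 4.42, 4.29 and 19.0 CPM in TRDKO libraries, against 70.6, 70.5 and 69.3 CPM in wild-type libraries. The gene was thus lower without receptors at both stages, by a log2 fold change of -2.89 at the earlier one, and TRDKO replicate 3 lay nearer to the wild type there. Without that library it was -4.01.

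ENSXETG00000021016 had 13, 15 and 31 counts in TRDKO, against 6991, 8201 and 4789 counts in wild-type tadpoles. Its level was 0.683 ± 0.374 CPM in TRDKO and 156 ± 1.53 CPM in wild-type tadpoles (SD, n = 3 each), and the log2 fold change was -7.86 ± 0.43 (standard error; adjusted p = 3.51e-08 by edgeR). This gene had been more abundant before metamorphosis in both genotypes, with 216, 212 and 88.6 CPM in TRDKO libraries, against 2659, 2768 and 2835 CPM in wild-type libraries of stage 54. It was again lower in TRDKO tadpoles at stage 54 (log2 fold change -4.00).

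ENSXETG00000003327 had 4583, 3277 and 3487 counts in TRDKO, against 2, 3 and 0 counts in wild-type tadpoles. Its level of 127 ± 3.20 CPM (SD, n = 3) in TRDKO tadpoles was 1305-fold the limit of 3 counts in the shallowest wild-type library (adjusted p = 3.46e-05, edgeR). At stage 54 it had 1240, 889 and 38 counts in TRDKO libraries, against 1, 8 and 4 counts in wild-type libraries. All TRDKO libraries of both stages were thus above all wild-type libraries, with replicate 3 of stage 54 far below the other two.

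ENSXETG00000016802 had 2291, 1621 and 1792 counts in TRDKO, against 1, 2 and 0 counts in wild-type tadpoles. Its level of 63.8 ± 0.403 CPM (SD, n = 3) in TRDKO tadpoles was 656-fold the same limit (adjusted p = 3.10e-05, edgeR). At stage 54 it had 45.1, 50.9 and 2.15 CPM in TRDKO libraries, against 1.87, 1.02 and 1.30 CPM in wild-type libraries. Wild-type tadpoles thus held a trace of it before metamorphosis. In each of the genes given by ID the adjusted p takes in the spread of TRDKO replicate 3 of stage 54 through the shared fit. For ENSXETG00000013699 and ENSXETG00000021016 it was 2.71e-114 and 6.05e-103 without that library (edgeR). Without that library it was 4.15e-105 for ENSXETG00000003327 and 5.50e-94 for ENSXETG00000016802 (edgeR), and between 4.15e-105 and 4.31e-04 and between 5.50e-94 and 3.75e-04 in all alternative fits.

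The libraries of stage 54 show where the stage 61 difference lay. The lower genes had a median level of 2.46, 2.48 and 2.51 CPM in the TRDKO libraries of stage 61, against 9.11, 9.06 and 9.04 CPM in the wild-type libraries of that stage. At stage 54 it was 2.81, 2.81 and 2.72 CPM in TRDKO libraries, against 1.94, 1.99 and 1.92 CPM in wild-type libraries. The wild type at climax was thus above the 3 other groups, with library size alone too (13.9 to 14.0 CPM, against 1.28 to 2.81 CPM in the other 9 libraries). The higher genes had a median of 22.7, 22.7 and 22.4 CPM in TRDKO at stage 61, against 6.50, 6.49 and 6.38 CPM in wild type at that stage. At stage 54 these genes had 19.6, 19.4 and 18.9 CPM in TRDKO libraries, against 14.6, 14.9 and 15.0 CPM in wild-type libraries. With TMM the wild type at climax was below the 3 other groups in these genes. Under library size alone it was not, at 9.80 to 10.02 CPM, against 9.83 to 9.93 CPM in wild-type libraries of stage 54, and TRDKO libraries had 22.2 to 22.5 CPM at stage 61 and 18.1 to 19.6 CPM at stage 54. The genes that were not called had medians between 13.5 and 14.2 CPM in all 12 libraries, which TMM brings about. With library size alone they had 13.3 to 13.5 CPM in TRDKO and 21.5 to 21.9 CPM in wild-type libraries of stage 61. Their stage 54 medians with that scaling were 13.15 to 13.69 CPM in TRDKO and 9.35 to 9.43 CPM in wild-type libraries. Library size alone thus put the wild type at climax above the other groups in uncalled genes too.

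**Figure D4:**
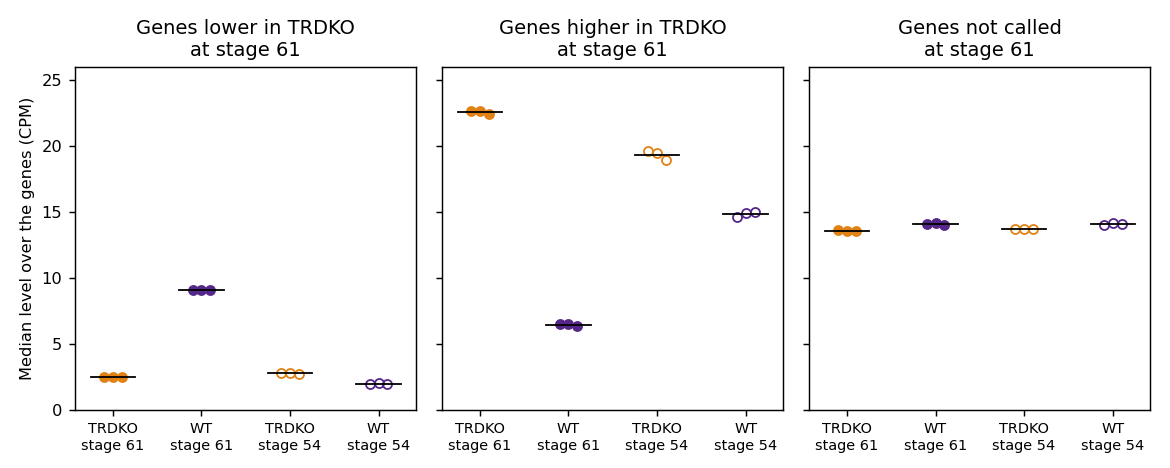
Median level in CPM, scaled by TMM, over the 2803 genes lower in TRDKO at stage 61 (left), the 1974 higher genes (middle) and the 9177 genes not called (right), 1 point per library and a line at the mean of the 3 libraries of a group, with filled points for stage 61 and open points for stage 54. The wild-type libraries of stage 61 lie above the other groups for the lower genes, at 9.04 to 9.11 CPM, and below them for the higher genes, at 6.38 to 6.50 CPM, which was not the case with library size alone (9.80 to 10.02 CPM).

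The libraries were also ranked gene by gene. In 1993 of the 2803 lower genes (71.1%), the 3 wild-type libraries of stage 61 were above each of the 9 other libraries, which was seen in 24.6% of all genes tested. In 760 lower genes (27.1%), the 3 TRDKO libraries of stage 61 were below all others, against 14.98% of all genes. Of the 1974 higher genes, 1233 (62.5%) had their lowest levels in the wild-type libraries of stage 61, against 18.3% of all genes, and 868 (44.0%) had their highest levels in the TRDKO libraries of stage 61, against 13.7% of all genes. Scaled by library size alone, the wild-type libraries of stage 61 were highest in 2480 of the lower genes (88.5%, against 55.2% of all genes). They were lowest in 692 of the higher genes (35.1%, against 5.90% of all genes). The TRDKO libraries of stage 61 were then lowest in 647 of the lower genes (23.1%, against 15.6% of all genes). They were highest in 936 of the higher genes (47.4%, against 8.55% of all genes). In the higher genes wild type was thus more often the extreme group with TMM, and TRDKO with library size alone. Since the call itself needs the genotypes to be apart at stage 61, these shares are in part fixed by it. Without TRDKO replicate 3 of stage 54, the numbers with TMM were 2015 (71.9%) and 917 (32.7%) for the lower genes. For the higher genes they were 1267 (64.2%) and 992 (50.25%). In uncalled genes, wild type of stage 61 was then highest in 17.6% and lowest in 16.2%, against 15.7% and 14.4% with all libraries. TRDKO of stage 61 was lowest in 17.85% and highest in 14.6% of the uncalled genes, against 14.5% and 11.4%. The rise was thus not confined to the called genes.

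Most genes called at stage 61 had not been called in the same direction before metamorphosis. At stage 54, 33.7% of the genes tested were called, 12% as lower and 21.7% as higher in TRDKO tadpoles. Of the 2803 genes lower at stage 61, 421 (15%) had been lower and 803 (28.6%) higher at stage 54, and 1579 (56.3%) had not been called. Of the 1974 genes higher at stage 61, 573 (29%) had been higher and 172 (8.71%) lower, and 1229 (62.3%) had not been called. Of the 1676 genes lower at stage 54 these are 25.1% and 10.3%, and of the 3025 genes higher at stage 54 they are 26.5% and 18.9%, in each case for those lower and those higher at stage 61. The contrasts share no library, though they share the estimate of the spread. Genes lower at climax were thus above the background of 12% and 21.7% in both calls at stage 54, and genes higher at climax were above it for higher and below it for lower calls. With library size alone, 4.24% of the genes tested were lower and 37% higher at stage 54. Of the 5438 genes lower at stage 61 with that scaling, 5.94% had been lower and 37.2% higher, which for the higher calls is the background, and of the 946 higher genes 50.1% had been higher and 3.49% lower. Without TRDKO replicate 3 of stage 54, 2943 genes were lower at stage 61, of which 428 (14.5%) had been lower and 824 (28%) higher. In that fit 2109 genes were higher, of which 660 (31.3%) had been higher and 218 (10.3%) lower. The background there was 12.5% lower and 21.5% higher at stage 54 among 14200 genes tested.

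The sets with unlike histories differed in level. The 803 genes called higher at stage 54 and lower at stage 61 had a median of 2.46 CPM in TRDKO and 9.54 CPM in wild-type tadpoles at stage 61. At stage 54 they had 2.30 CPM in TRDKO and 0.553 CPM in wild-type tadpoles, so the median TRDKO level was nearly the same at both stages. That the wild-type level went past it is fixed by the opposite calls, as is the change of order in the 172 genes called the other way. The 421 genes lower at both stages had 3.10 CPM in TRDKO and 10.4 CPM in wild-type tadpoles at stage 61, and 5.69 and 18.3 CPM in the same genotypes at stage 54. The 573 genes higher at both stages were rare in the wild type, with 9.99 CPM in TRDKO and 1.73 CPM in wild-type tadpoles at stage 61, and 6.20 and 1.12 CPM at stage 54. The 172 genes called lower at stage 54 and higher at stage 61 had 17.8 CPM in TRDKO and 4.02 CPM in wild-type tadpoles at stage 61, and 25.4 and 79.8 CPM at stage 54. The 1229 genes called higher at stage 61 and not called at stage 54 had 35.4 CPM in TRDKO and 10.2 CPM in wild-type tadpoles at that stage, and 34.4 and 32.6 CPM at stage 54. The 1579 genes called lower at stage 61 and not called at stage 54 had 2.32 CPM in TRDKO and 8.41 CPM in wild-type tadpoles at stage 61, and 2.99 and 2.68 CPM at stage 54. Levels of the wild type at both stages are set against each other by TMM here. Scaled by library size alone, the 421 genes had 15.9 CPM in wild-type tadpoles at stage 61 and 12.2 CPM at stage 54, which turns the order of the stages, whereas the 803 genes had 14.7 and 0.369 CPM.

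**Figure D5:**
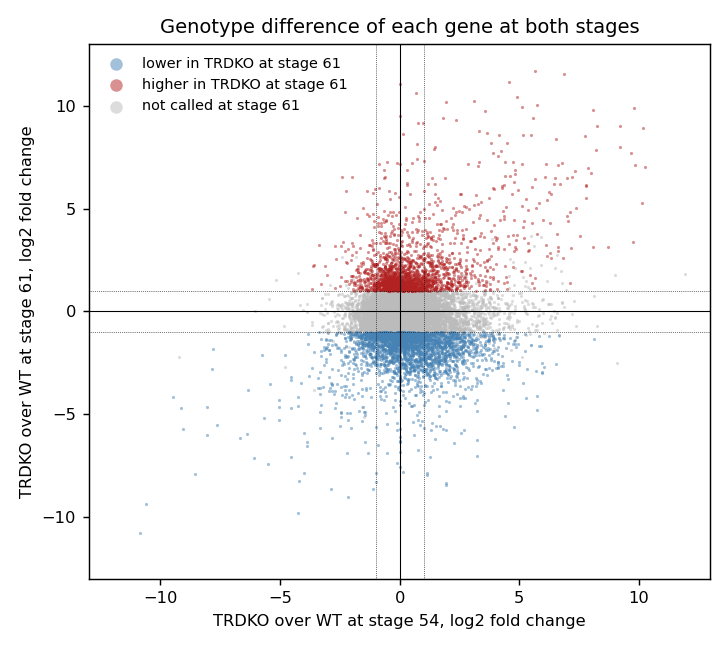
Log2 fold change of TRDKO over wild type at stage 61 (vertical axis) against that at stage 54 (horizontal axis) for each tested gene, coloured by the call at stage 61, with dotted lines at 2-fold. The 2803 lower genes spread over both sides of 0 at stage 54, with 803 called higher and 421 called lower there, and the 1974 higher genes include 573 called higher and 172 called lower at stage 54.

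Whether the genotype effect of a gene differed between the stages was tested by the difference of both effects in the same fit, which passed in 67.6% of all genes. Of the 2803 lower genes, 2182 had a lower genotype effect at stage 61 than at stage 54, 64 a higher one, and 557 did not pass the adjusted p. Of the 1974 higher genes, 1354 had a higher effect at stage 61, 92 a lower one, and 528 did not pass. These numbers are with TMM. With library size alone, 1160 of all genes tested had a higher effect at stage 61 and 10331 a lower one. The 1354 genes could thus not all pass as higher with that scaling. The stage 61 contrast is a part of this test, so a gene called by it tends to pass, and the counts are a description. Among the 421 genes lower at both stages, 281 did not pass, 76 had a larger fall at stage 61 and 64 a smaller one. Among the 573 genes higher at both stages, 362 did not pass, 119 had a larger rise at stage 61 and 92 a smaller one. Missing the threshold does not show that the effects were equal. Without TRDKO replicate 3 of stage 54, 2362 lower genes had a lower and 1512 higher genes a higher effect at stage 61. Over all 14200 genes tested in that fit, 6107 had a lower and 5118 a higher effect at stage 61. Of the genes lower at both stages 223 did not pass there, and of those higher at both stages 288.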

How the data were processed

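The authors deposited raw counts per gene for 19921 Ensembl IDs in 12 libraries of poly-A-selected RNA, 3 per genotype and stage. Per the labels and the methods, reads were aligned by STAR (2.6.1c) to the Ensembl genome of this species with JGI gene models and counted by featureCounts (1.6.3). The kit marks strand, but the strand setting of the counting and its treatment of reads on several genes were not given in the sources used here, so overlapping genes and near-identical copies are uncertain.

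Columns were matched to libraries by name, and totals were 20112705 to 37936503 counts. A count of 0 allows 3 counts (counting error only), or 0.0578 to 0.118 CPM of the scaled totals at stage 61. The 13954 genes kept by filterByExpr were scaled by TMM and fitted with glmQLFit of edgeR 4.0.16 (R 4.3.3), with a mean per genotype and stage, and tested with glmQLFTest. The difference between stages was called at the adjusted p alone. Standard errors and 95% intervals come from the F statistic, and values per library were compared by exact permutation (scipy 1.17.1). The procedure was tested on simulated data with equal numbers of rises and falls in a small set of genes. Those data lacked the unlike composition of the real libraries, so that test does not bear on the scaling.

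None of the IDs was in the gene table of assembly UCB_Xtro_10.0, so the gene lists, cell type markers and sequences were not used, and genes were named by the rule for unmatched IDs given in the report. The comparison, lists and rules were chosen with earlier results of these data known. Alternatives were DESeq2 1.42.0 (on 12 libraries, and on the 6 of stage 61 unfiltered), edgeR on those 6, RLE factors, library size alone, filters on low counts, no fold threshold, glmTreat, a replicate block, and fits without single libraries. Fits without the 100 most abundant genes of each genotype, and on counts thinned to the smallest total, were added after the data were seen.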

Additional observations from a re-analysis of the deposited data

Results flagged for a closer look

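The genotype effect differed between stage 61 and stage 54 in 3 of the 4 genes given by ID (contrast of both effects in the edgeR fit). The difference of the log2 fold changes was -5.73 for ENSXETG00000013699 (adjusted p = 4.96e-05) and -3.86 for ENSXETG00000021016 (adjusted p = 4.46e-05), both of which were lower in TRDKO tadpoles at each stage and more so at climax. It was 6.60 for ENSXETG00000016802 (adjusted p = 0.0217), with a 95% interval of 1.68 to 11.5. With library size alone this gene missed the threshold (5.45, adjusted p = 0.0538). For ENSXETG00000003327 the difference of 4.64 did not pass (adjusted p = 0.257, 95% interval -3.04 to 12.3). Without TRDKO replicate 3 of stage 54, all 4 genes passed in the same direction in the edgeR fit, ENSXETG00000003327 among them (4.06, adjusted p = 1.12e-07).

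Among the genes called at stage 61 the same test passed in 2182 lower genes with a lower effect and in 1354 higher genes with a higher effect at that stage than at stage 54. These include the 803 genes that were called higher at stage 54 and lower at stage 61 and the 172 called the other way, all of which passed. Opposite calls at the stages nearly fix that outcome. The stage 61 contrast is a part of the test, which passed in 67.6% of all genes tested, so these counts are a description. They are also bound to TMM. With library size alone, 1160 of all genes tested had a higher effect at stage 61 and 10331 a lower one, so the 1354 genes could not all pass. The genes given by ID were also picked by their stage 61 difference.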

How the results depend on the processing

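The threshold and the scaling moved the counts of lower and higher genes most. Without a fold threshold 5498 lower and 4291 higher genes were called, with glmTreat against a 2-fold change 1834 lower genes (and 1398 higher ones), and with library size alone 5438 lower and 946 higher genes. The difference from the genotype effect at stage 54 was called in 9427 genes, and in 4400 with glmTreat. The other planned fits gave 2471 to 3059 lower and 1887 to 2473 higher genes. Without single libraries of stage 61 the lower genes numbered 2471 to 2768 and the higher genes 1950 to 2195. Of these, 2459 to 2659 and 1901 to 1948 genes were among those of the fit with all libraries, and the difference from stage 54 was called in 8888 to 8956 genes. Leaving out a wild-type library of this stage moved the median log2 fold change of all genes to between -0.02 and -0.016. TMM then used TRDKO replicate 3 of stage 54, which stood apart from its group, as its reference. In edgeR on the 6 libraries of stage 61, with TRDKO replicate 3 of stage 61 as reference, the median was -0.014. In the fit without the 100 most abundant genes it was -0.0165. Whether the reference moved the median was not tested. Without TRDKO replicate 3 of stage 61 the reference changed too, to TRDKO replicate 1 of stage 54, and the median was -0.114. The log2 fold changes of the genes given by ID stayed between -9.25 and -8.30, -8.50 and -7.51, 10.9 and 12.2, and 10.6 and 11.9 in the order of the report.

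Same-numbered libraries of the genotypes did not deviate together, with correlations of -0.0084 to 0.0092, so no pairing by number was seen in the counts. Libraries of a genotype differed by 1.19 to 1.88 times the sampling noise. With so little other spread the correlations could not exclude a pairing. With the replicate number as a block, 2567 lower and 2227 higher genes were called, against 2568 and 2232 without the block in the same 6 libraries. Fits of 6 libraries give no difference from stage 54. Without single libraries the genes that reached 10 counts differed in number by -484.3 to -278.8 (TRDKO minus wild type) and the share of the top 100 genes by 15.7 to 15.9 percentage points. The share of the top 10 genes was higher by 3.38 and that of the top 1000 by 12.3 points. The depth limits rare genes: the median standard error was 0.446 in the rarest bin of genes.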
